A study of Homo sapiens with 8 samples.

Results

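A set of 10 genes of non-muscle myosin II was followed through an RNA sequencing study of the nuclear envelope protein SUN2. They are the regulatory light chain genes MYL9, MYL12A and MYL12B, the heavy chain genes MYH9 and MYH10, the light chain kinase genes MYLK and MYLK3, the kinase genes ROCK1 and ROCK2, and PPP1R12A, which encodes the targeting subunit of myosin phosphatase. These 10 genes of 25369 in the count table were found by symbol, and all 10 passed the filter on low counts. They had been chosen by their counts in these same libraries, with their differences from WT known. Their differences are therefore given as values with errors and no p-value. Where a count of them past the threshold used for all genes is given, it is a description, and it is read as support for nothing.

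The cells were MDA-MB-231, an established human breast cancer line of mesenchymal appearance. There were 4 genotypes, with 2 libraries each: SUN2KO, labelled as a SUN2 knockout; Kashlid, with a SUN2 lacking residues 569 to 585, meant to cut its tie to Nesprin-2G; LBD, with a SUN2 lacking residues 1 to 139, meant to cut its tie to the lamin network; and WT. All groups shared the same medium and culture conditions. The labels say neither whether the truncated forms were placed in SUN2KO or in WT cells, nor whether a line is 1 clone, nor whether the 2 libraries of a genotype came from separate cultures. Errors and p-values here therefore cover the variation among these 8 libraries alone, and that variation could be purely technical.

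Non-muscle myosin II is a motor built from a pair of heavy chains, a pair of essential light chains and a pair of regulatory light chains. Phosphorylation of the regulatory light chain, by myosin light chain kinase or by the ROCK kinases, switches the motor on and lets it pull on actin filaments. Myosin phosphatase removes that phosphate, and the ROCK kinases also inhibit the phosphatase through the subunit that PPP1R12A encodes. In adherent cells the motor drives stress fibres, whose tension reaches the nucleus through SUN and Nesprin proteins. Counts report transcript only, and say nothing of phosphorylation or force.

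Libraries held 16570099 to 18814795 counts each, and 14016 genes passed the filter. SUN2 itself (chromosome 22, 39130719 to 39151467, hg19) had 25.6 and 30.3 CPM (counts scaled to library size with TMM factors) in SUN2KO, 37.2 and 35.4 in Kashlid, 32.5 and 34.6 in LBD, and 83.7 and 81.9 in WT. All 3 lines thus held less SUN2 transcript than WT, and none lacked it. The 5 markers of the line were VIM, CD44, CAV1, MSN and S100A4. Their sum was 1650 to 1682 CPM in SUN2KO, 1525 to 1638 in Kashlid, 1749 to 1761 in LBD and 1845 to 1851 in WT. VIM, CAV1 and S100A4 averaged highest in WT, and CD44 and MSN in LBD. Of markers low in this line, PGR reached at most 1 count, ESR1 17 and CDH1 29, while ERBB2 lay between 47.8 and 57.9 CPM. Of 8 muscle markers, SMTN, a smoothelin gene also active outside muscle, gave 27.7 to 45.6 CPM and the other 7 reached at most 4.81 CPM each. Of 3 markers of HEK293 cells, which were grown in the same study, LIN28B had 0 counts in WT and up to 17 in the other lines. PAX2 and NEFM had 0 counts in SUN2KO, Kashlid and LBD, and at most 3 in WT. The summed level of these 3 genes was 0.595 to 0.913 CPM in SUN2KO, 0.347 to 0.645 in Kashlid, 0.658 to 0.694 in LBD and 0.0594 to 0.17 in WT. Their part in the results was not tested.

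The largest differences fell on MYLK3, MYLK and MYL9, which were much lower in the Kashlid and LBD lines than in SUN2KO or WT. The remaining 7 genes differed by less than 1.5-fold between any pair of genotypes. The order of genotypes was not the same for all: ROCK2 and MYLK3 were highest in SUN2KO, whereas MYL9 and both heavy chain genes were highest in WT.

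The 2 kinase genes come first because their transcripts showed the widest range. MYLK (chromosome 3, 123331143 to 123603149, hg19) encodes the classical myosin light chain kinase of smooth muscle and non-muscle cells. MYLK3 (chromosome 16, 46736194 to 46782221, hg19) encodes the kinase first known from heart muscle. The promoter windows below, from RefSeq on GRCh38.p14, show the sequence 250 bases before to 50 bases after each annotated start on the gene's own strand, which is the minus strand. Those of MYLK3 are printed because it showed the widest range of the 10 genes. Capitals mark matches to a CArG box, the element bound by serum response factor, or to GGAATG or its complement CATTCC, the core bound by TEAD factors. The MYLK3 windows lie at chr16:46763197-46763496 and chr16:46748295-46748594.
MYLK3, window 1: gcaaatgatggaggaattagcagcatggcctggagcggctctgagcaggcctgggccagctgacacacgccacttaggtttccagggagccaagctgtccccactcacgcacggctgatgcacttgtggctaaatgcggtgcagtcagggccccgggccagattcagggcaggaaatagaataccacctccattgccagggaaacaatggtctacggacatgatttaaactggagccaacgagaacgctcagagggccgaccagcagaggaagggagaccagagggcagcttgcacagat
MYLK3, window 2: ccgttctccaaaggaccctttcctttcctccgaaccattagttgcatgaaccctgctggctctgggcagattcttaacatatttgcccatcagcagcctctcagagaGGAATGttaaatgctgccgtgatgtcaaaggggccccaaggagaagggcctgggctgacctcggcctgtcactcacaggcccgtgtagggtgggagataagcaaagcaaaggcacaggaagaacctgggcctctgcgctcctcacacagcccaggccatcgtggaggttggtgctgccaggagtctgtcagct

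The first window held neither motif, and the second held 1 GGAATG, beginning 143 bases before its start. Among the 18 windows found for 9 of the 10 genes, 2 held a CArG box, 1 of MYLK and 1 of ROCK2, and 8 held GGAATG on either strand. MYL9 had no window, so neither motif was sought for it. Across all 35116 RefSeq windows of this length, 1.29% held a CArG box and 14% held GGAATG, counting both strands. The MYLK window lies at an internal start of the gene, 263783 bases downstream of the outermost start in GENCODE, and so it does not show the promoter of the long kinase transcripts. A match describes letters in a window and shows no binding.

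MYLK3 had 18.6 and 18.5 CPM in SUN2KO, 1.68 and 1.58 in Kashlid, 2.08 and 1.02 in LBD, and 9.99 and 11.4 in WT. No library of one genotype overlapped those of another, except that Kashlid and LBD overlapped each other. Relative to WT, SUN2KO had a log2 fold change (± SE) of 0.79 ± 0.16, Kashlid one of -2.71 ± 0.22 and LBD one of -2.78 ± 0.22. Relative to SUN2KO, MYLK3 was lower 11.3-fold in Kashlid and 11.8-fold in LBD. These low levels rest on few reads, with raw counts of 29 and 27 in Kashlid and of 36 and 17 in LBD, against 168 and 201 in WT. Without LBD replicate 1 the log2 difference of LBD from WT was -3.38, and without LBD replicate 2 it was -2.36.

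MYLK gave 7.36 and 7.36 CPM in SUN2KO, 2.37 and 3.34 in Kashlid, 3.24 and 2.57 in LBD, and 5.05 and 8.35 in WT. The Kashlid and LBD libraries all lay below both WT libraries, whereas SUN2KO fell between the 2 WT values. Its log2 fold change from WT was 0.13 ± 0.22 in SUN2KO, -1.23 ± 0.25 in Kashlid and -1.21 ± 0.25 in LBD. Both WT libraries differed widely from each other, at 85 and 147 counts. Without WT replicate 2 the values became 0.54 in SUN2KO, -0.82 in Kashlid and -0.79 in LBD; without WT replicate 1 they became -0.18, -1.55 and -1.52 for the same 3 lines. The sign for SUN2KO therefore depended on which WT library was kept, and the sign for Kashlid and LBD did not. The gene overlaps MYLK-AS1 on the genome, which had 7 to 25 counts per library. No source used here gives the strand setting of the counting, and reads of the 2 genes cannot be told apart where they overlap.

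Compared per kilobase of exon (GENCODE release 29), MYLK3 stood at 2.60 ± 0.0077 CPM per kb in SUN2KO, 0.229 ± 0.0092 in Kashlid, 0.218 ± 0.106 in LBD and 1.504 ± 0.142 in WT (SD, n = 2). MYLK stood at 0.485 ± 8.63e-05, 0.188 ± 0.0454, 0.192 ± 0.0312 and 0.442 ± 0.154 CPM per kb in SUN2KO, Kashlid, LBD and WT. The SUN2KO libraries held 343 and 344 counts of MYLK3, and 136 and 137 of MYLK. Their very small SDs over 2 libraries therefore understate the error of counting. MYLK3 thus made up 84.3% of the summed level of the 2 kinase genes in SUN2KO, 55.2% ± 6.99 in Kashlid, 51.8% ± 8.54 in LBD and 77.6% ± 4.50 in WT. With the length of the principal transcript in place of all exons, a choice made after seeing the data, its share was 78.5% in SUN2KO, 45.7% in Kashlid, 42.4% in LBD and 70.3% in WT. MYLK3 was thus the larger of the pair in SUN2KO and WT under either length, while in Kashlid and LBD the order of the means depended on the length used. There it also differed between libraries. By exon length MYLK3 made up 57.8% and 45.7% in the LBD libraries, and 60.1% and 50.2% in those of Kashlid. By principal transcript length its share was 48.3% and 36.5% in LBD, and 50.6% and 40.7% in Kashlid.

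**Figure D1:**
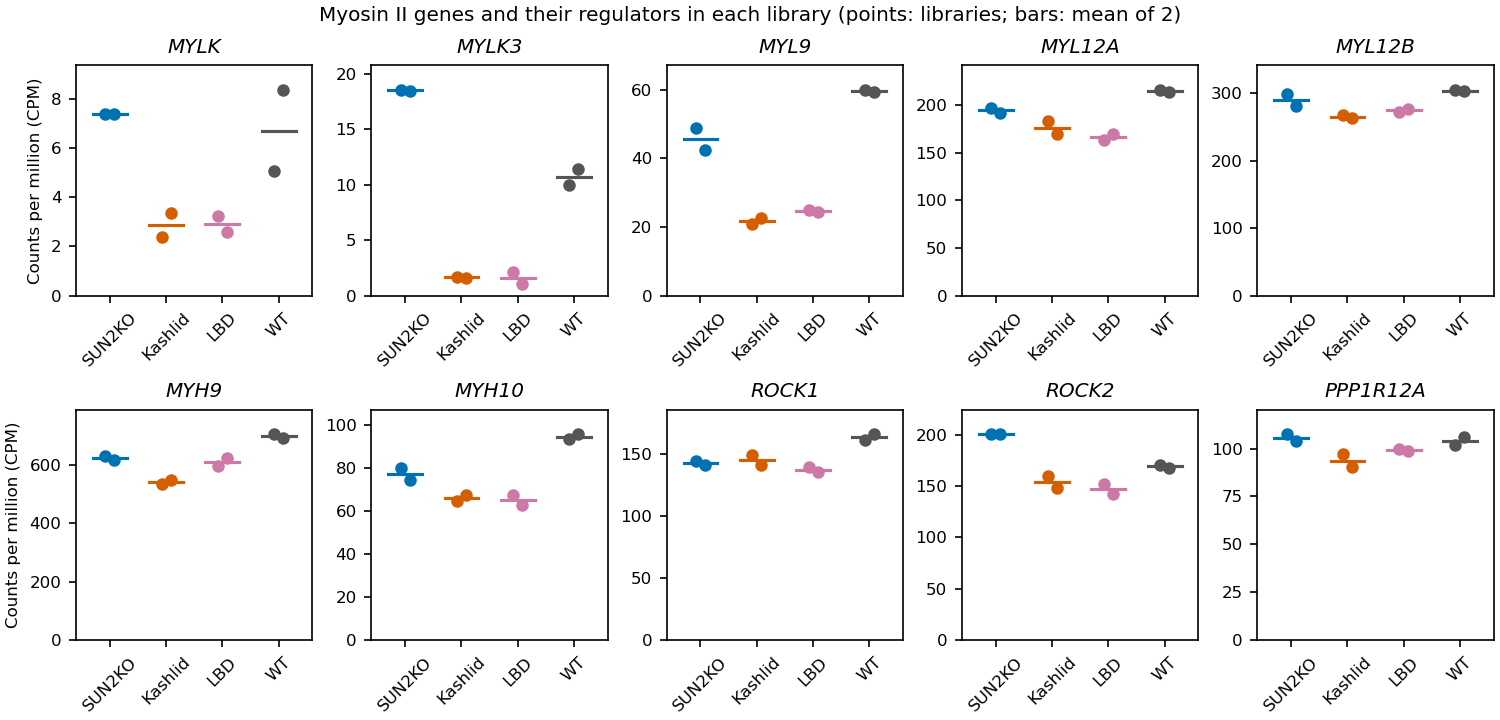
Level of each of the 10 genes in every library, in CPM on linear axes that start at 0. Points are libraries and bars the mean of 2; MYLK3 sits at 18.6 and 18.5 CPM in SUN2KO and at or below 2.08 CPM in Kashlid and LBD, against 9.99 and 11.4 in WT.

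Among the regulatory light chain genes, MYL9 differed most. MYL9 (chromosome 20, 35169887 to 35178226, hg19) encodes the regulatory light chain typical of smooth muscle, which many adherent cells also make. It had 49.0 and 42.4 CPM in SUN2KO, 20.8 and 22.5 in Kashlid, 25.04 and 24.3 in LBD, and 60.0 and 59.3 in WT. The 4 genotypes did not overlap: WT was highest, SUN2KO next, then LBD, and Kashlid lowest. The log2 fold change from WT was -0.38 ± 0.08 in SUN2KO, -1.46 ± 0.09 in Kashlid and -1.27 ± 0.09 in LBD. Means of LBD and Kashlid differed by 0.19 ± 0.09 on the log2 scale, about 2 SE. LOC101926987, which overlaps MYL9, had 0 to 5 counts per library.

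MYL12A and MYL12B encode the near-identical regulatory light chains that most non-muscle cells use. They are neighbours on chromosome 18 (3247528 to 3256234 and 3262111 to 3278282, hg19), with 5876 bases between them. Because their coding sequences are so alike, reads may have been split between them or left out of the counts. Their separate values, and their level beside MYL9, are therefore uncertain. MYL12A had 197 and 192 CPM in SUN2KO, 183 and 169 in Kashlid, 163 and 170.0 in LBD, and 216 and 213 in WT. Every library of the 3 lines lay below both WT libraries, with log2 fold changes of -0.14 ± 0.05 in SUN2KO, -0.28 ± 0.05 in Kashlid and -0.37 ± 0.05 in LBD. MYL12B had 299 and 281 CPM in SUN2KO, 268 and 263 in Kashlid, 272 and 277 in LBD, and 305 and 303 in WT. It was likewise below WT in all 6 libraries, at log2 fold changes of -0.07 ± 0.05, -0.20 ± 0.05 and -0.15 ± 0.05 in SUN2KO, Kashlid and LBD.

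The abundant light chains were thus lower by at most 1.29-fold, where MYL9 was lower by up to 2.75-fold. Per kilobase of exon, MYL9 made up 5.32% ± 0.35 of the regulatory light chain transcripts in SUN2KO, 2.85% ± 0.25 in Kashlid, 3.26% ± 0.13 in LBD and 6.40% ± 0.0058 in WT (SD, n = 2). By principal transcript length the same shares were 3.98%, 2.11%, 2.404% and 4.82% in SUN2KO, Kashlid, LBD and WT. Under both lengths MYL9 was the minor light chain in every genotype.

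The heavy chain genes were highest in WT. MYH9 (chromosome 22, 36677323 to 36784063, hg19) encodes non-muscle myosin IIA, the main heavy chain of most migrating cells. It had 632 and 619 CPM in SUN2KO, 534 and 551 in Kashlid, 597 and 624 in LBD, and 706 and 692 in WT. All 6 libraries of the 3 lines lay below WT, Kashlid lowest of all. The log2 fold change was -0.16 ± 0.04 in SUN2KO, -0.37 ± 0.04 in Kashlid and -0.20 ± 0.04 in LBD. MIR6819, annotated within its span, had at most 1 count.

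MYH10 (chromosome 17, 8377523 to 8534079, hg19) encodes non-muscle myosin IIB, which turns over more slowly on actin. Its level was 79.7 and 74.2 CPM in SUN2KO, 64.8 and 67.5 in Kashlid, 67.3 and 62.5 in LBD, and 93.3 and 95.6 in WT. SUN2KO lay between WT and the truncation lines without overlap, and Kashlid and LBD overlapped. Log2 fold changes were -0.30 ± 0.06 in SUN2KO, -0.51 ± 0.06 in Kashlid and -0.54 ± 0.06 in LBD. Per kilobase of exon, MYH9 made up 89.1% ± 0.35 of the 2 heavy chains in SUN2KO, 89.2% ± 0.076 in Kashlid, 90.4% ± 0.72 in LBD and 88.2% ± 0.34 in WT.

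The ROCK kinase genes differed from each other. ROCK2 (chromosome 2, 11321778 to 11484711, hg19) had 201 and 201 CPM in SUN2KO, 160.4 and 148 in Kashlid, 152 and 142 in LBD, and 171 and 168 in WT. SUN2KO was above WT, by 0.24 ± 0.05 on the log2 scale, and Kashlid and LBD were below it, at log2 fold changes of -0.14 ± 0.06 and -0.20 ± 0.06. Relative to SUN2KO, ROCK2 had log2 fold changes of -0.38 ± 0.05 in Kashlid and -0.45 ± 0.05 in LBD. ROCK1 (chromosome 18, 18529703 to 18691812, hg19) had 145 and 142 CPM in SUN2KO, 149.7 and 141 in Kashlid, 139.6 and 136 in LBD, and 162 and 166 in WT. It was below WT in all 3 lines, at log2 fold changes of -0.19 ± 0.05, -0.17 ± 0.05 and -0.25 ± 0.05 in SUN2KO, Kashlid and LBD. The share of ROCK2 in the 2 kinases per kilobase of exon was 60.3% ± 0.39 in SUN2KO, 53.4% ± 0.39 in Kashlid, 53.6% ± 0.71 in LBD and 52.8% ± 0.76 in WT.

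PPP1R12A (chromosome 12, 80167343 to 80307691, hg19) varied least. It had 108 and 104 CPM in SUN2KO, 97.1 and 90.1 in Kashlid, 100.01 and 98.8 in LBD, and 102 and 106 in WT. SUN2KO overlapped WT, and Kashlid and LBD lay just below it. Log2 fold changes were 0.02 ± 0.06 in SUN2KO, -0.15 ± 0.06 in Kashlid and -0.07 ± 0.06 in LBD.

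**Figure D2:**
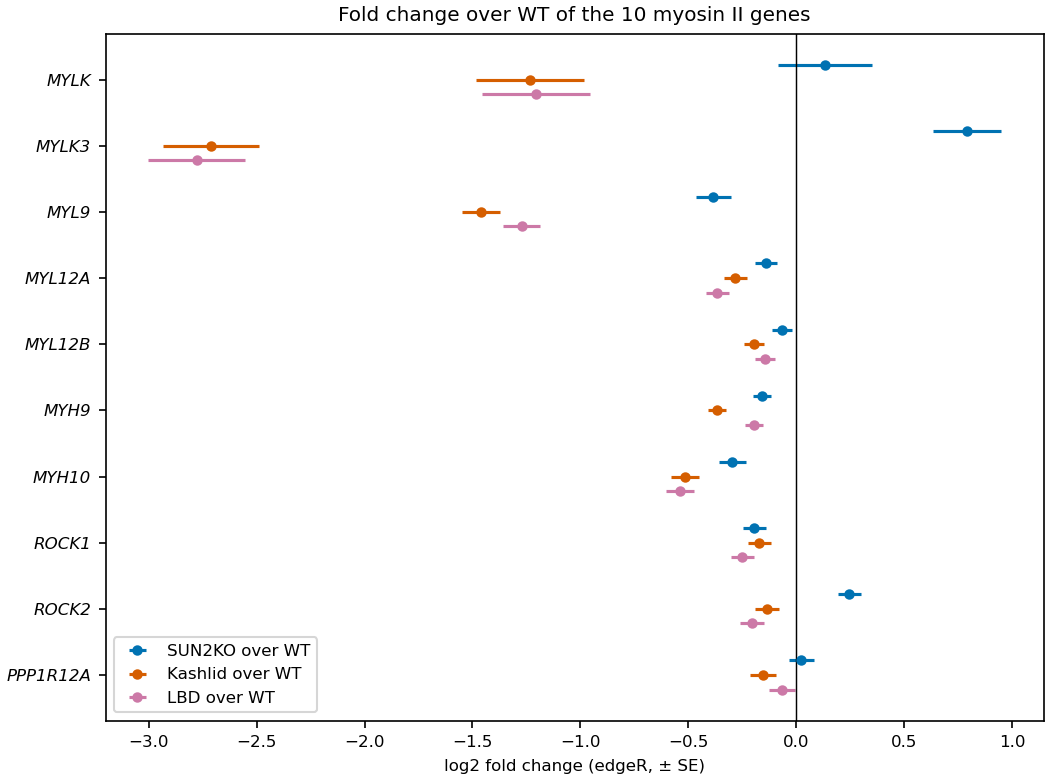
Log2 fold change over WT of each of the 10 genes, with the SE of the edgeR fit (4 groups of 2 libraries). MYLK3, MYLK and MYL9 lie beyond -1 in Kashlid and LBD, and MYLK3 and ROCK2 lie highest in SUN2KO, at 0.79 and 0.24. The other values of those lines fall between -0.54 and 0.13, with MYLK and PPP1R12A also above 0 in SUN2KO.

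The same comparisons can be set against all genes. Past an adjusted p of 0.05 in edgeR's quasi-likelihood test, with Benjamini-Hochberg adjustment over all 14016 genes, SUN2KO had 2 of the 10 genes higher than WT, where 17.5% of all genes were, and 5 lower, where 19.1% were. The 2 were MYLK3 and ROCK2, and the 3 genes not past it were MYLK, MYL12B and PPP1R12A. In Kashlid 0 were higher, where 21.7% of all genes were, and 9 were lower, where 22.7% were. ROCK2 was the gene not past the threshold, and it passed with DESeq2's median-ratio factors in the same test. With DESeq2 itself the number lower was 4 in SUN2KO and 8 in Kashlid. In Kashlid it was also 8 with library size as the only scaling and in a fit of the 2 groups alone. In LBD 0 were higher, where 19.0% of all genes were, and 9 were lower, where 21.0% were; PPP1R12A was the exception. With 1 library left out in turn, the number lower was 2 to 4 in SUN2KO (2 without SUN2KO replicate 2, 3 without either WT library), 7 to 10 in Kashlid and 7 to 8 in LBD. Nothing is read from these counts, since the same contrasts were known when the genes were picked.

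By separation of libraries, 2 of the 10 genes had both SUN2KO libraries above both of WT, where 34.7% of all genes did, and 6 had both below, where 34.7% did. All 10 had both Kashlid libraries below both of WT, where 35.5% of all genes did, and 0 had both above, where 35.6% did. All 10 likewise had both LBD libraries below both of WT, where 35.0% of all genes did, and 0 had both above, where 34.9% did. The median log2 fold change from WT over the 10 genes was -0.10 in SUN2KO, -0.32 in Kashlid and -0.31 in LBD, and over all genes it was 0.00, 0.01 and 0.00. The comparisons share the WT libraries.

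Set directly against SUN2KO, Kashlid had 0 of the 10 genes higher, where 8.92% of all genes were, and 7 lower, where 9.13% were. LBD had 0 higher than SUN2KO, where 6.69% of all genes were, and 6 lower, where 6.79% were. The number lower in Kashlid was 5 with library size as the only scaling, with DESeq2 and without SUN2KO replicate 1, and in LBD it was 4 without SUN2KO replicate 1. MYLK3, MYLK, MYL9, MYH10 and ROCK2 were among the lower genes in both. MYH9 and PPP1R12A were lower in Kashlid but were not past the threshold in LBD, and MYL12A the reverse. Between the truncation lines, LBD had 1 gene higher than Kashlid, where 1.63% of all genes were, and 0 lower, where 1.28% were. That gene was MYH9, at 0.17 ± 0.04 on the log2 scale; it was not past the threshold without Kashlid replicate 1, without either LBD library or in a fit of the 2 groups alone.

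The authors' deposited tables of comparisons with WT gave log2 fold changes for the 10 genes that differed from those above by at most 0.0066. Their values for MYLK3 were 0.79 in SUN2KO, -2.71 in Kashlid and -2.78 in LBD. Those tables name no columns, and the fold change column was identified by its match to a fit of the same counts. The closeness is therefore no independent check.

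Genes near each of the 10 on its chromosome were read for comparison, taking every tested gene within 2.5 Mb. The 13 neighbours of MYLK3 had median log2 fold changes of 0.01 in SUN2KO, -0.05 in Kashlid and -0.01 in LBD, and 0 of them lay further from 0 than MYLK3 on its side in any of the 3 lines. For MYLK the 31 neighbours had medians of 0.06, 0.08 and 0.03 in SUN2KO, Kashlid and LBD, and 0 lay further on its side in Kashlid or LBD. Around MYL9 the 63 neighbours were themselves low, at medians of -0.15 in SUN2KO, -0.18 in Kashlid and -0.17 in LBD. MYL9 lay further still in Kashlid and LBD, with 0 neighbours beyond it, while in SUN2KO 8 lay beyond it. ROCK1 lay within the middle 50% of its 11 neighbours, whose medians were -0.23 in SUN2KO, -0.15 in Kashlid and -0.21 in LBD. MYH10 was low where its 82 neighbours had medians of 0.09, 0.21 and 0.13 in SUN2KO, Kashlid and LBD. PPP1R12A had 4 tested neighbours, too few to describe.

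**Figure D3:**
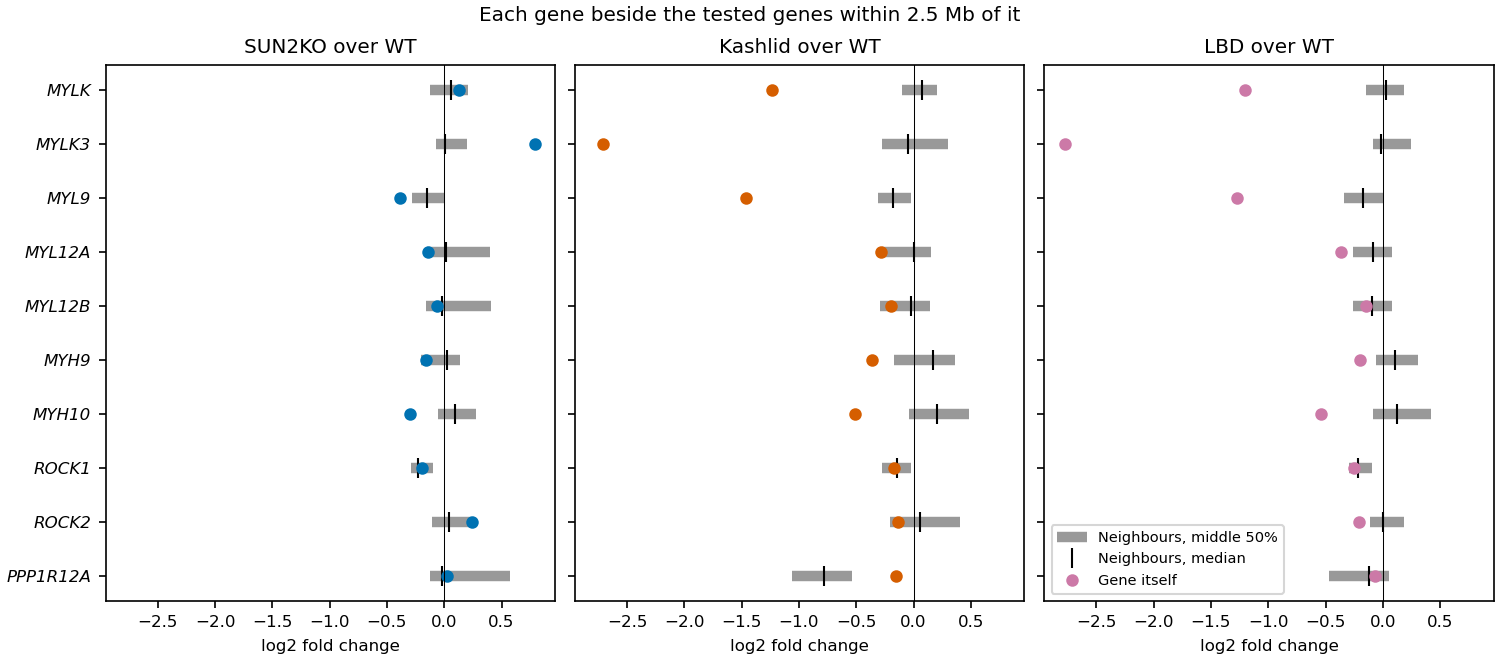
Log2 fold change over WT of each gene (point) beside the median (tick) and the middle 50% (bar) of the tested genes within 2.5 Mb, with the same axis in all 3 panels. MYLK3, MYLK and MYL9 stand clear of their neighbours in Kashlid and LBD, and ROCK1 falls within its neighbours, whose medians are -0.23 in SUN2KO, -0.15 in Kashlid and -0.21 in LBD.

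Genes most like each of the 3 widest-ranging members were found by the root mean square (RMS) difference of centred log2 CPM over the 8 libraries, among 10857 genes. MYLK3 was nearest to PZP, a pregnancy-zone protease inhibitor (RMS 0.65), and to DKK1, a secreted Wnt inhibitor (RMS 0.72), neither of them close. PZP averaged 14.9 CPM in SUN2KO, 0.583 in Kashlid, 0.44 in LBD and 4.83 in WT. MYLK was nearest to KCNK15, a potassium channel gene, at an RMS of 0.27. KCNK15 averaged 16.4 CPM in SUN2KO, 5.42 in Kashlid, 6.75 in LBD and 14.2 in WT. MYL9 was nearest to SQLE (RMS 0.11) and MSMO1 (RMS 0.14), which encode enzymes of cholesterol synthesis. SQLE averaged 40.6 CPM in SUN2KO, 21.99 in Kashlid, 22.8 in LBD and 62.1 in WT.

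Other genes of the pathway were taken from lists, 5 of which are described here: myosin II chains, kinases and calmodulin, phosphatase, further ROCK substrates, and myosin-binding proteins. Of 84 genes over all the lists, 63 passed the filter on low counts and were tested. Against WT, 18 rose and 13 fell in SUN2KO, 15 rose and 18 fell in Kashlid, and 17 rose and 15 fell in LBD. The called share was 49.2%, 52.4% and 50.8% of the tested genes in SUN2KO, Kashlid and LBD, and over all 14016 genes it was 36.7%, 44.5% and 40.0%. The lists were chosen with earlier results of these data known. Nothing is therefore read from differences between their shares and those of all genes, here or below, and none was tested. The adjusted p of their genes carry the same limit. Without WT replicate 1 the number called was 19 in SUN2KO and 21 in LBD. The median log2 fold change over these genes was 0.04 in SUN2KO, -0.06 in Kashlid and 0.03 in LBD, beside 0.00, 0.01 and 0.00 for all genes.

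Among 7 tested genes for further myosin II chains, MYL6 encodes an essential light chain. MYL6 averaged 584 ± 17.1 CPM in SUN2KO, 486 ± 20.1 in Kashlid, 488 ± 14.3 in LBD and 639 ± 17.1 in WT (SD, n = 2). It fell in all 3 lines, with adjusted p = 0.0284 in SUN2KO, 5.68e-07 in Kashlid and 9.06e-07 in LBD. That call in SUN2KO was lost without WT replicate 1 (adjusted p = 0.213) and without either SUN2KO library. MYH3 and MYH15, heavy chain genes with low counts here, rose in all 3 lines. MYH15 averaged 2.86 ± 1.13 CPM in SUN2KO, 3.79 ± 0.20 in Kashlid, 5.64 ± 0.53 in LBD and 1.34 ± 0.29 in WT. In SUN2KO the calls of both were lost when single libraries were left out (adjusted p up to 0.228 for MYH15 and 0.209 for MYH3), and that of MYH3 also with DESeq2 (adjusted p = 0.0763). Of the 7 genes, 42.9% were called in SUN2KO, 42.9% in Kashlid and 57.1% in LBD, beside 36.7%, 44.5% and 40.0% of all genes. MYH14, the remaining non-muscle heavy chain gene, did not pass the filter.

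Of 13 other kinase and calmodulin genes, 4 rose and 0 fell in SUN2KO, 2 rose and 2 fell in Kashlid, and 3 rose and 1 fell in LBD. That is 30.8% of the list in each line, beside 36.7%, 44.5% and 40.0% of all genes in SUN2KO, Kashlid and LBD. DAPK1, a death-associated protein kinase that can phosphorylate the regulatory light chain, had 53.4 and 56.1 CPM in SUN2KO, 59.0 and 52.8 in Kashlid, 54.3 and 64.0 in LBD, and 18.6 and 23.3 in WT. It rose 2.61-fold in SUN2KO, 2.67-fold in Kashlid and 2.82-fold in LBD (adjusted p at most 1.63e-09). Its relative DAPK2 rose 2.22-fold, 2.94-fold and 2.73-fold in SUN2KO, Kashlid and LBD. CALM2, one of the genes for calmodulin, the calcium sensor of myosin light chain kinase, fell in Kashlid (-0.23 ± 0.04, adjusted p = 0.000144) and LBD (-0.18 ± 0.04, adjusted p = 0.00171).

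Of 7 tested genes for phosphatase subunits and inhibitors, 1 rose in SUN2KO, 3 in Kashlid and 1 in LBD, and 0 fell in any of them. The called share was 14.3% in SUN2KO and LBD and 42.9% in Kashlid. Over all genes it was 36.7% in SUN2KO, 44.5% in Kashlid and 40.0% in LBD. PPP1R16A rose in Kashlid and LBD, but with DESeq2 it did not pass in Kashlid (adjusted p = 0.0861). Its log2 fold change was 0.23 in Kashlid, and 0.15 without Kashlid replicate 2. In LBD it was 0.29, and 0.18 without LBD replicate 2. PPP1R12C rose in Kashlid, at 0.31, and at 0.21 without Kashlid replicate 2. PPP1CC, a catalytic subunit, averaged 330.4 ± 1.73 CPM in SUN2KO, 316 ± 2.05 in Kashlid, 289.6 ± 12.3 in LBD and 283 ± 5.84 in WT. It rose in SUN2KO (adjusted p = 0.000738) and in Kashlid (adjusted p = 0.00925) and did not pass the test in LBD (adjusted p = 0.599).

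The 10 further ROCK substrates and cofilin regulators were mixed: 2 rose and 3 fell in SUN2KO, 1 rose and 4 fell in Kashlid, and 2 rose and 5 fell in LBD. The called share was 50% in SUN2KO, 50% in Kashlid and 70% in LBD, beside 36.7%, 44.5% and 40.0% of all genes. LIMK1 encodes a kinase that the ROCK kinases activate and that phosphorylates cofilin. LIMK1 averaged 41.7 ± 0.82 CPM in SUN2KO, 40.6 ± 0.039 in Kashlid, 44.1 ± 1.96 in LBD and 60.0 ± 0.13 in WT. It fell in all 3 lines (adjusted p = 6.27e-06 in SUN2KO, 1.87e-06 in Kashlid and 4.05e-05 in LBD). LIMK2 fell too, at log2 fold changes of -0.36 ± 0.10 in SUN2KO, -0.58 ± 0.11 in Kashlid and -0.45 ± 0.11 in LBD; in SUN2KO the call was lost without WT replicate 1 (adjusted p = 0.0872) and without SUN2KO replicate 1 (adjusted p = 0.0796).

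The 8 tested myosin II folding and binding proteins had the lowest medians of these 5 lists, at -0.22 in SUN2KO, -0.33 in Kashlid and -0.27 in LBD. In each line 1 rose and 5, 5 and 4 fell in SUN2KO, Kashlid and LBD. The called share was thus 75%, 75% and 62.5% of the list, beside 36.7%, 44.5% and 40.0% of all genes. SVIL encodes supervillin, which binds myosin II and actin, and fell 1.79-fold in SUN2KO, 1.57-fold in Kashlid and 1.60-fold in LBD (adjusted p at most 5.06e-06). UNC45A, a myosin chaperone, averaged 93.2 ± 3.27 CPM in SUN2KO, 96.6 ± 6.30 in Kashlid, 96.5 ± 5.10 in LBD and 122 ± 0.066 in WT. It fell in all 3 lines (adjusted p = 4.22e-05 in SUN2KO, 0.000141 in Kashlid and 0.000156 in LBD). S100A4 encodes a protein that binds myosin IIA and disassembles its filaments. S100A4 averaged 361 ± 2.62 CPM in SUN2KO, 331 ± 0.74 in Kashlid, 287 ± 3.31 in LBD and 431 ± 1.25 in WT. It too fell in all 3 lines (adjusted p = 9.78e-05 in SUN2KO, 4.90e-07 in Kashlid and 1.45e-09 in LBD). MYO18A, an unconventional myosin that assembles with myosin II, rose on the log2 scale by 0.30 ± 0.06, 0.22 ± 0.06 and 0.30 ± 0.06 in SUN2KO, Kashlid and LBD.

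**Figure D4:**
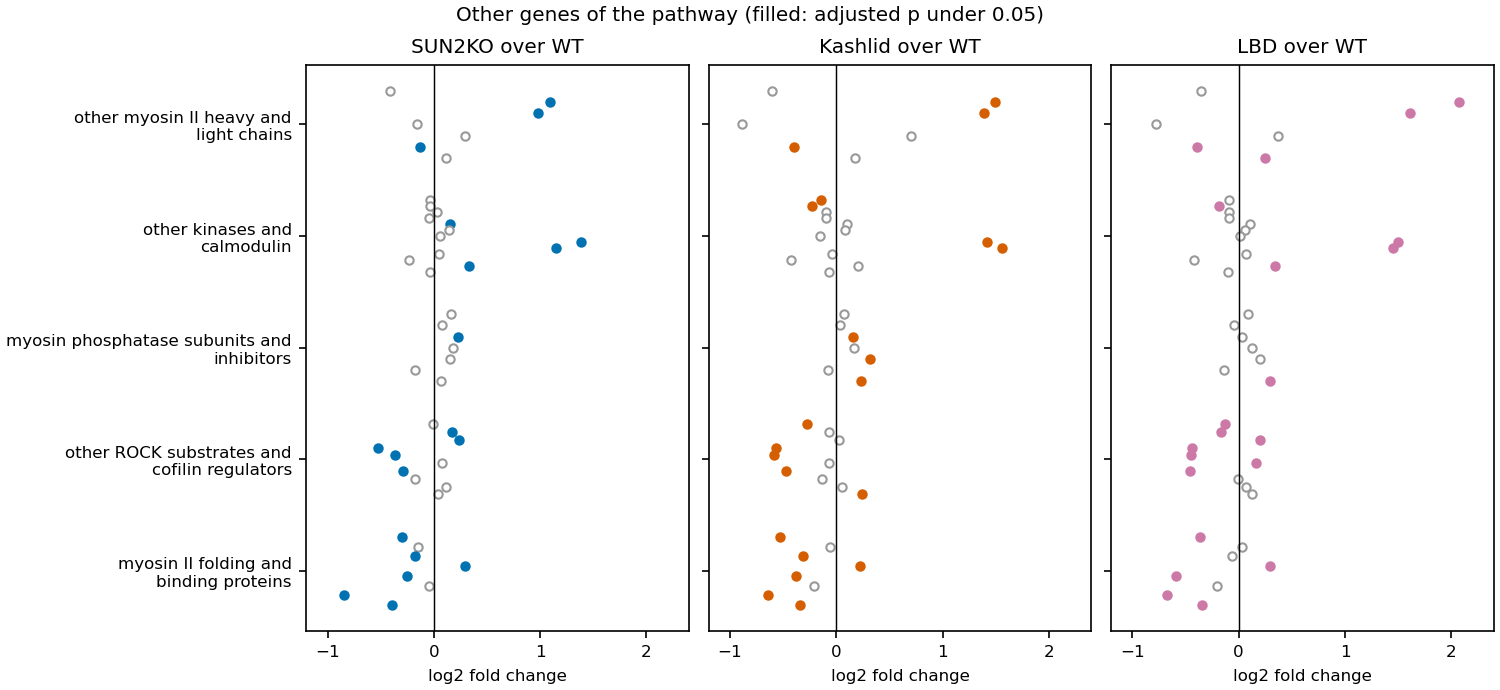
Log2 fold change over WT of 45 pathway genes in 5 lists, one panel per line; filled points passed an adjusted p of 0.05 and open points did not. DAPK1 and DAPK2 stand to the right in all 3 panels and SVIL to the left, and each list holds points on both sides of 0.

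Against SUN2KO, 2 of the 63 pathway genes rose and 15 fell in Kashlid, where 8.92% and 9.13% of all genes did. In LBD 5 rose and 10 fell, where 6.69% and 6.79% of all genes did. Without SUN2KO replicate 1 the number called was 8 in Kashlid and 5 in LBD, without SUN2KO replicate 2 it was 11 and 6, and without LBD replicate 1 or 2 it was 9 and 5 in LBD. Against Kashlid, 4 rose and 1 fell in LBD, where 1.63% and 1.28% of all genes did, and 2 to 8 were called with 1 of those libraries left out, except 0 without LBD replicate 2. In bulk RNA, fewer cells with a transcript and less of it per cell cannot be told apart.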

How the data were processed

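RNA was sequenced from 8 MDA-MB-231 libraries in 4 groups of 2, as the genotype labels give them. The count values are the raw reads per gene that the authors deposited; per the submitters' processing notes the tools were Trim Galore, STAR 2.7.1a, HTSeq, bedtools 2.24.0 and DESeq2, on hg19. No source used here gives the annotation or the strand setting. Log2 fold changes were also deposited by the authors in 3 tables without column names, whose other columns used here are gene positions; 12 unnamed per-library columns were not used. The table had 0 entries naming no gene.

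The 10 genes and all pathway lists were chosen with earlier results of these data known. Counts were fitted with edgeR 4.0.16 under R 4.3.3 (TMM factors, filterByExpr, quasi-likelihood F test, two-sided, 1 term per group over all 8 libraries, 4 residual degrees of freedom), with Benjamini-Hochberg adjustment over 14016 genes at 0.05. The SE of a log2 fold change is its size over the root of the F statistic. The edgeR and DESeq2 calls were tested on simulated counts, for Kashlid against WT only. The planted changes were larger than those of most of the 10 genes. The other steps were not tested in this way. Named pathway genes are the 2 largest called changes each way per list and comparison with WT, averaging 1 CPM or more, and those described are among them; 1 list and 1 gene like a member are not reported here. Genes like a member were sought for members with a 2-fold span, among genes averaging 5 CPM or more. Exon lengths came from GENCODE release 29 on another build and served only as lengths; the principal-transcript alternative was added after seeing the data.

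Alternatives were DESeq2 1.42.0, a replicate block, no filter, at least 5 CPM in 2 libraries, library size only, median-ratio factors, a fit of the 2 groups alone, and leaving out each library. Depth was 18814795 and 18662262 counts in SUN2KO, 17041108 and 16851763 in Kashlid, 17146119 and 16570099 in LBD, and 17115114 and 17779388 in WT.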

Additional observations from a re-analysis of the deposited data

How the results depend on the processing

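No value named in the text reversed a call under the alternatives tried. Of 132 counts, 109 stayed within 1.5 times the main count; of 588 pathway gene values, 557 kept their call and 31 lost it. Of 660 values for the 10 genes, 624 moved by less than 1 SD of the libraries and 36 by more, such as MYL12B in SUN2KO against WT, at -0.07 and, without SUN2KO replicate 2, -0.02 on the log2 scale. For LBD against Kashlid, 408 genes were called in the main analysis, 775 with no filter on low counts and 129 with the 2 groups alone, where 2 pathway genes were called in place of 5; the causes were not tested. Leaving out 1 library at a time gave 19 to 23 called pathway genes for SUN2KO against WT and 21 to 27 for LBD against WT. It gave 1186 to 2375 genes and 8 to 17 pathway genes for Kashlid against SUN2KO, 884 to 1355 and 5 to 9 for LBD against SUN2KO, and 129 to 839 and 0 to 8 for LBD against Kashlid. A lone remaining library was assumed to vary like the other groups.

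With the replicate number as a block, 5412 genes were called in SUN2KO, 6457 in Kashlid and 5798 in LBD against WT, beside 5137, 6232 and 5611 without it. With it, or with median-ratio factors, all 10 genes were past the threshold as lower in Kashlid than in WT, ROCK2 included. With library size only, with DESeq2 or with the 2 groups alone, 8 were. Deviations of same-numbered libraries correlated at 0.21 to 0.23 among SUN2KO, Kashlid and LBD, and at -0.0039 to 0.12 between these lines and WT. What these correlations stem from was not tested. The main analysis did not take the numbers as pairing, and each group has 2 libraries only. The low levels of MYLK and MYLK3 rest on 17 to 57 counts in Kashlid and LBD, which limits their precision.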
